A study of Arabidopsis thaliana with 42 samples.

Results

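The photoperiod and floral integrator genes are 9 Arabidopsis thaliana genes that act in the day-length pathway or elsewhere in the control of flowering and flower formation. They were chosen by name and locus from a table of read counts for 25069 loci, with earlier results of these data known. CONSTANS (CO, AT5G15840) and its closest relatives COL1 (AT5G15850) and COL2 (AT3G02380) encode B-box proteins. CDF1 (AT5G62430) encodes a repressor of CO, and FT (AT1G65480) and its paralog TSF (AT4G20370) encode the mobile flowering signal. SOC1 (AT2G45660), FLC (AT5G10140) and SEP3 (AT1G24260) encode MADS-box transcription factors. Of the 9 genes, 8 had a row in the table and 7 had enough counts to be tested. TSF had no row and was not analysed here, and FLC had a row but failed the filter on low counts.

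In the long-day pathway, the circadian clock and light set the hour at which CO is transcribed and its protein is stable. CDF proteins hold CO down in the morning, until the light-dependent complex of FKF1 and GIGANTEA (GI) has them degraded. CO protein then activates FT in the companion cells of the leaf phloem, and FT protein moves to the shoot apex and, with the bZIP protein FD, turns on SOC1 and the floral identity genes. FLC, which prolonged cold silences, represses FT and SOC1. SEP3 acts late, as a partner of the floral organ identity proteins.

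PolyA RNA had been sequenced from 2-week-old seedlings grown on agar plates at 22 °C with 16 h of light and 8 h of dark, after 7 days of cold and darkness as imbibed seed. The 12 RNA libraries, out of 42 samples in the series, fall into 4 groups of 3: ddm1, ddm1nrpd1, ddm1nrpe1 (written ddm1npre1 in the labels) and ddm1cmt2. All 4 groups carry the ddm1 mutation, which removes a chromatin remodeller needed for DNA methylation of heterochromatic transposons. The double mutants also lack the largest subunit of RNA polymerase IV (nrpd1) or V (nrpe1), enzymes of RNA-directed DNA methylation, or the chromomethylase CMT2. No wild-type RNA library was analysed here, so each change below stands against ddm1. The labels of the RNA libraries do not name the mutant alleles, and the sources used here do not give the hour of harvest. They do not say that replicates came from separate cultures either, so p-values measure a spread between samples that may be technical.

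Libraries held 7.84 to 24.8 M counts. All 12 replicate pairs differed beyond counting noise, with a chi-square statistic of 3.77 to 24.0 times its degrees of freedom, so each library was counted as 1 sample. The share of counts from plastid loci was highest in ddm1, at 1.57 to 1.97%, then 0.779 to 0.924% in ddm1cmt2, 0.164 to 0.263% in ddm1nrpd1 and 0.124 to 0.309% in ddm1nrpe1, and the fit without organelle loci gave the same calls for the 7 tested genes. The summed level of 4 root markers was 60.3 to 76.9 CPM in ddm1 and 52.3 to 70.8 in ddm1cmt2, above 26.4 to 30.3 in ddm1nrpd1 and 25.9 to 29.1 in ddm1nrpe1. All 4 fell in both polymerase double mutants at the threshold used below, but unequally in ddm1nrpd1. There COBL9 had 0, 2 and 2 counts and EXPA7 had 0, 1 and 1. PIN2 stood at 16.1, 16.8 and 18.1 CPM there, against 20.3, 28.3 and 24.0 in ddm1. The summed level of 4 leaf markers was highest in ddm1cmt2, at 36035 to 38185 CPM, and was 24718 to 27745 in ddm1, 23584 to 26521 in ddm1nrpd1 and 22732 to 28496 in ddm1nrpe1. The leaf markers did not move together. In ddm1cmt2 CAB2 and LHCA1 lay above every ddm1 library, while RBCS1A and RBCS3B overlapped ddm1. At the threshold used below, 2 rose in ddm1cmt2, 1 rose in ddm1nrpd1, and 2 rose and 1 fell in ddm1nrpe1. Neither set of markers was tested for its part in the results.

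Levels are CPM, the counts relative to the library total after scaling by the trimmed mean of M values (TMM), given per library for replicates 1, 2 and 3 and as mean ± SD over n = 3. Differences are log2 fold changes ± standard error, tested with edgeR's quasi-likelihood F test with Benjamini-Hochberg adjustment over the 24839 tested loci, and a gene is said to have risen or fallen at an adjusted p under 0.05. The levels carry no correction for transcript length and are compared across groups, not between genes. CO and its relatives fell and FT rose in the double mutants, with the exception of COL1 in ddm1nrpd1, which did not pass the test. In ddm1nrpd1, 3 genes rose and 3 fell, or 6 of 7 tested, where 44.6% of all tested loci passed (22.9% higher and 21.7% lower). In ddm1nrpe1, 2 rose and 4 fell, where 50.4% of all loci passed (26.5% higher and 23.9% lower), and FT left the count of risen genes, which became 1, without ddm1 replicate 3 or ddm1nrpe1 replicate 3. In ddm1cmt2, 3 rose and 3 fell, where 36.1% of all loci passed (18.4% higher and 17.7% lower). SEP3 lost its call in ddm1nrpd1 and in ddm1cmt2 in several fits with 1 library left out. The genes called were then as few as 5 in each of these mutants. The median size of the log2 fold change was 1.00 over the 7 genes and 0.37 over all loci in ddm1nrpd1, 1.85 and 0.42 in ddm1nrpe1, and 2.30 and 0.34 in ddm1cmt2. The 3 comparisons share the ddm1 libraries.

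**Figure D1:**
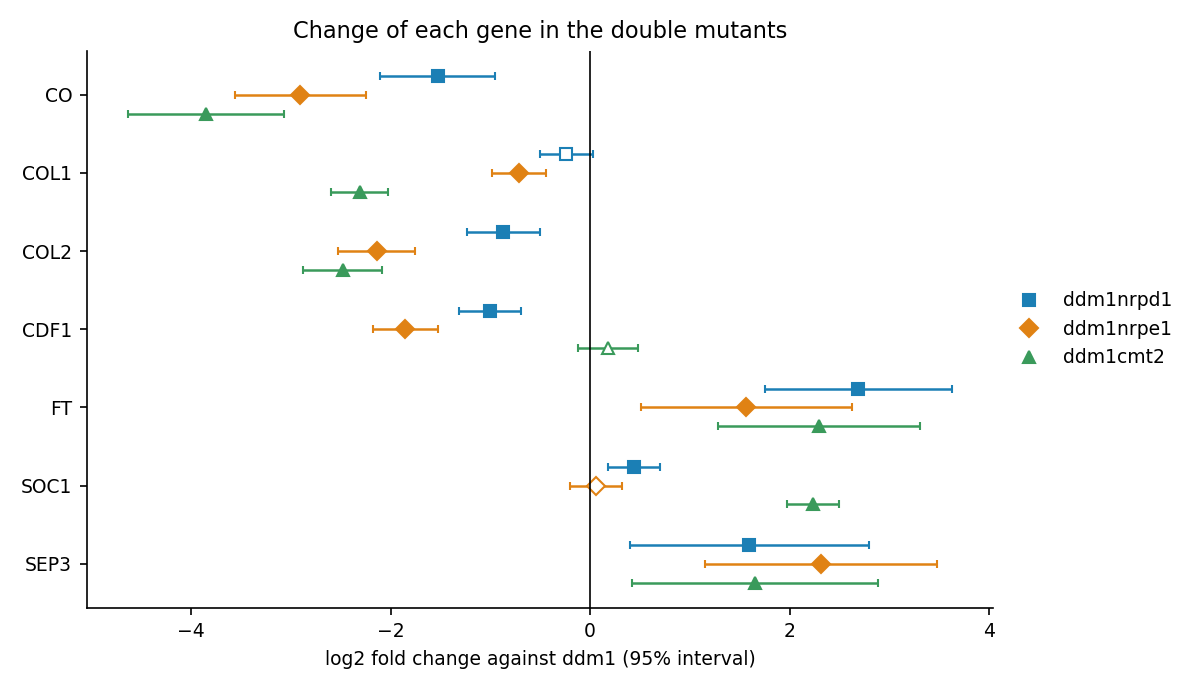
Log2 fold change of each tested gene in the 3 double mutants against ddm1, from edgeR's quasi-likelihood fit, with 95% intervals as bars; filled symbols passed at an adjusted p under 0.05 and open symbols did not. CO lies left of 0 in all 3 mutants and FT right of 0, while SOC1 stands at 2.23 in ddm1cmt2 against 0.44 and 0.06 in the other mutants.

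CO was highest in ddm1 and lower in each double mutant. Its levels in ddm1 were 6.26, 5.93 and 8.85 CPM (7.01 ± 1.60). In ddm1nrpd1 they were 3.58, 2.29 and 1.43 CPM (2.43 ± 1.09). In ddm1nrpe1 they were 0.946, 1.05 and 0.809 CPM (0.934 ± 0.120). All ddm1 libraries lay above all libraries of these mutants, and the ddm1nrpd1 libraries lay between. The ddm1cmt2 libraries were lowest of all, at 0.303, 0.487 and 0.639 CPM (0.476 ± 0.168), from 3, 8 and 7 counts. CO fell 2.89-fold in ddm1nrpd1 (log2 fold change -1.53 ± 0.27, adjusted p = 0.00033), 7.50-fold in ddm1nrpe1 (-2.91 ± 0.31, adjusted p = 2.2e-06) and 14.4-fold in ddm1cmt2 (-3.85 ± 0.37, adjusted p = 1.1e-06). From whole seedlings, fewer cells of a type and less RNA per cell cannot be told apart, here and for the other genes.

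**Figure D2:**
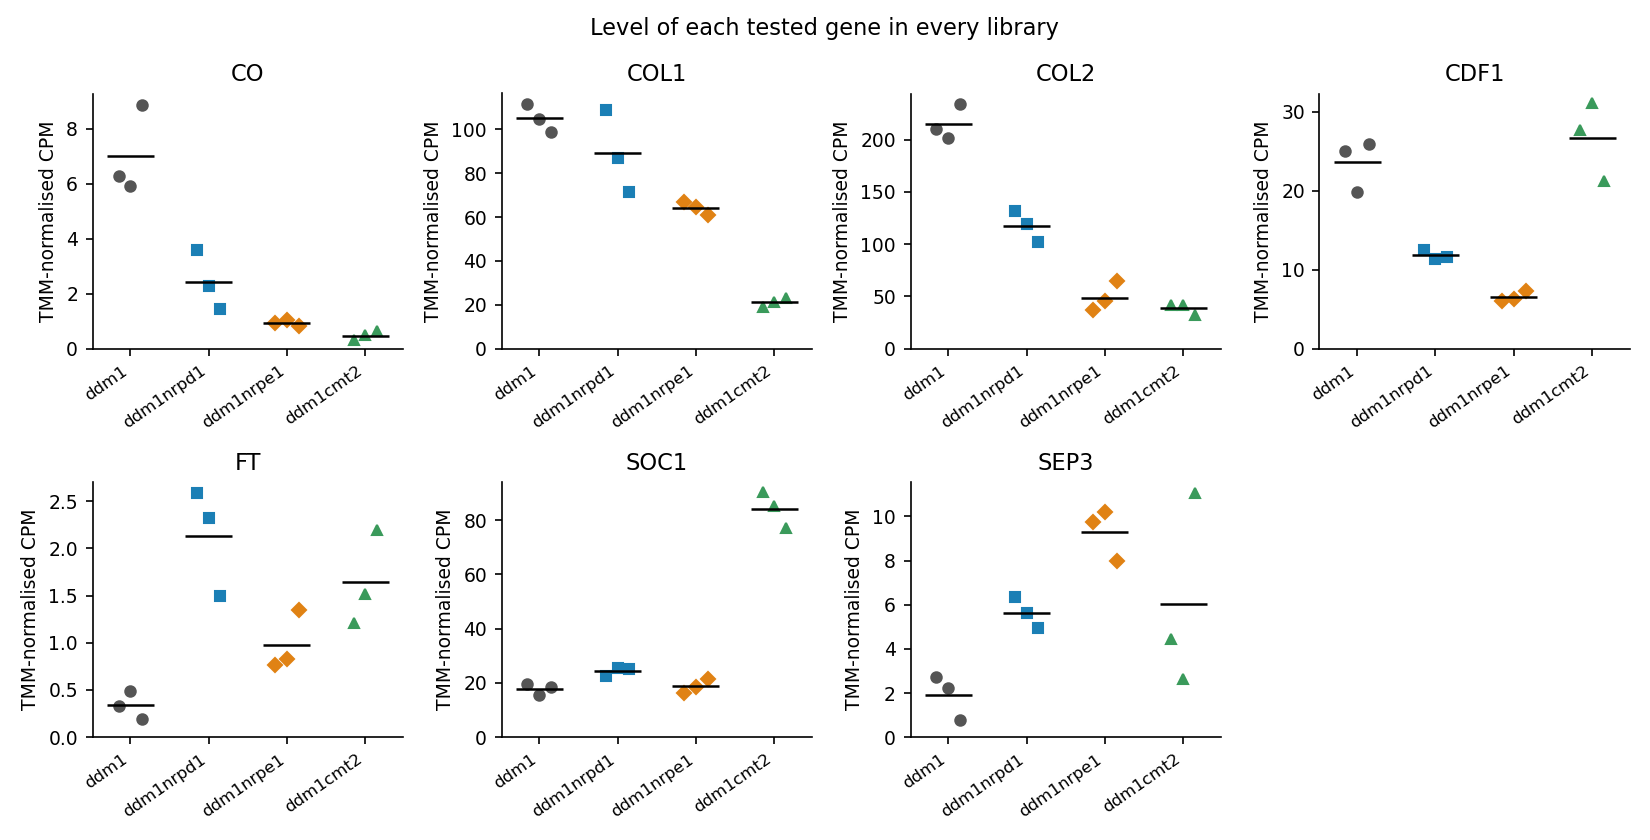
Level of each of the 7 tested genes (TMM-normalised CPM, linear axes starting at 0) in every library of the 4 groups; each point is 1 library and each line is the mean of 3. CO, COL1 and COL2 are highest in ddm1, FT is lowest in ddm1, and SEP3 in ddm1cmt2 spreads from 2.62 to 11.05 CPM.

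COL1 and COL2 encode the B-box proteins closest to CO, and their mean levels had the same order over the 4 groups as that of CO. COL1 stood at 112, 105 and 99.0 CPM in ddm1 (105 ± 6.39) and at 109, 86.8 and 71.6 CPM in ddm1nrpd1 (89.1 ± 18.7), so the ranges of the groups overlapped. It stood at 66.8, 64.6 and 60.9 CPM in ddm1nrpe1 (64.1 ± 3.02) and at 19.2, 21.3 and 23.0 CPM in ddm1cmt2 (21.2 ± 1.92), below every ddm1 library in both. COL1 fell in ddm1nrpe1 (log2 fold change -0.71 ± 0.13, adjusted p = 0.00026) and 4.96-fold in ddm1cmt2 (-2.31 ± 0.14, adjusted p = 5.5e-09). In ddm1nrpd1 its difference was -0.24 ± 0.13 (95% interval -0.50 to 0.03, adjusted p = 0.13). Without ddm1nrpd1 replicate 1, the highest library of that group, it was -0.41 and passed (adjusted p = 0.00821). In the RefSeq annotation (assembly TAIR10.1), the long non-coding gene AT5G15845 overlaps COL1 and also CO, which lies next to it. The counts of both loci differed by at most 4 in any library, over 190 to 2275 counts for COL1, so reads of COL1 and AT5G15845 cannot be told apart in this table. CO, with 3 to 92 counts per library, lay far below both loci, and whether reads of AT5G15845 are among its counts was not tested. A second gene that overlaps CO, AT5G15843, was not analysed here.

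COL2 fell in all 3 double mutants. It stood at 210, 201 and 234 CPM in ddm1 (215 ± 17.0) and at 131, 120 and 102 CPM in ddm1nrpd1 (118 ± 14.5). It stood at 36.7, 45.1 and 64.4 CPM in ddm1nrpe1 (48.7 ± 14.2) and at 41.5, 42.0 and 32.0 CPM in ddm1cmt2 (38.5 ± 5.6). The ddm1 libraries lay above all others, the ddm1nrpd1 libraries came next, and the lowest pair of groups overlapped. The log2 fold change was -0.87 ± 0.17 in ddm1nrpd1 (adjusted p = 0.0011), -2.14 ± 0.18 in ddm1nrpe1 (adjusted p = 5.0e-07) and -2.48 ± 0.18 in ddm1cmt2 (adjusted p = 2.5e-07). The loci AT3G02370 and AT3G02390, which overlap COL2 in the RefSeq annotation, held 1.29 to 3.17 CPM and 0.123 to 1.06 CPM, far below COL2.

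Among 12 further CO-like genes tested of 14 listed, 3 rose and 4 fell in ddm1nrpd1, where 44.6% of all loci passed. In ddm1nrpe1 4 rose and 3 fell (50.4% of all loci), and in ddm1cmt2 4 rose and 1 fell (36.1%). The counts of this and the later lists were not tested against these shares. The 4 that fell in ddm1nrpd1 became 1 or 2 when ddm1 replicate 1 or 3, or ddm1nrpd1 replicate 1 or 2, was left out. The median log2 fold change of these genes was -0.22, 0.07 and 0.08 in ddm1nrpd1, ddm1nrpe1 and ddm1cmt2, beside medians within 0.01 of 0 over all loci. COL9, a relative known to repress CO and FT, fell in all 3 mutants, from 19.8 ± 5.61 CPM in ddm1 to 6.53 ± 1.14 in ddm1nrpd1, 4.14 ± 0.390 in ddm1nrpe1 and 6.98 ± 0.667 in ddm1cmt2. BBX15 rose in all 3, from 64.8 ± 5.65 CPM to 138 ± 18.5, 125 ± 13.6 and 190 ± 13.1 in the same order.

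CDF1, the DOF-type repressor that occupies the CO and FT promoters in the morning, fell in both polymerase double mutants and did not pass the test in ddm1cmt2. Its levels were 25.0, 19.9 and 26.0 CPM in ddm1 (23.6 ± 3.28) and 12.5, 11.3 and 11.7 CPM in ddm1nrpd1 (11.8 ± 0.578). They were 6.03, 6.28 and 7.33 CPM in ddm1nrpe1 (6.55 ± 0.688) and 27.8, 31.1 and 21.3 CPM in ddm1cmt2 (26.7 ± 4.99). The polymerase double mutants lay below every ddm1 library, while the ddm1cmt2 and ddm1 ranges overlapped. The log2 fold change was -1.004 ± 0.14 in ddm1nrpd1 (adjusted p = 4.7e-05), -1.85 ± 0.15 in ddm1nrpe1 (adjusted p = 1.2e-07) and 0.18 ± 0.14 in ddm1cmt2 (95% interval -0.12 to 0.48, adjusted p = 0.35). The paralog CDF2, also a repressor of CO, fell in all 3 mutants (-0.73 ± 0.18, -1.18 ± 0.18 and -1.70 ± 0.19). CDF5 (AT1G69570) fell in ddm1cmt2 (-1.36 ± 0.14). In ddm1nrpd1 CDF5 did not pass (-0.28, adjusted p = 0.094), but passed without ddm1nrpd1 replicate 2 (-0.41, adjusted p = 0.0294). CDF3, another paralog, rose in ddm1cmt2 (0.95 ± 0.14) and fell in ddm1nrpe1 (-0.85 ± 0.14). It also fell in ddm1nrpd1 (-0.39 ± 0.14), with an adjusted p of up to 0.114 when single libraries were left out.

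The 15 listed inputs to CO were GI, FKF1, further CDF and FBH factors, photoreceptors, COP1 and SPA1. Of these, 4 rose and 6 fell in ddm1nrpd1, where 44.6% of all loci passed. In ddm1nrpe1 2 rose and 4 fell (50.4% of all loci), and in ddm1cmt2 9 rose and 3 fell (36.1%). GI, the partner of FKF1 in removing CDF proteins, rose in all 3 mutants. It stood at 1.32, 1.23 and 0.865 CPM in ddm1, at 55.2 to 78.5 CPM in ddm1nrpd1, at 14.2 to 16.9 CPM in ddm1nrpe1 and at 110 to 138 CPM in ddm1cmt2, with no overlap between groups. The log2 fold change of GI was 5.93 ± 0.21, 3.74 ± 0.22 and 6.80 ± 0.20 in that order of mutants. FKF1, the light-sensing F-box protein of that complex, stood at 12.2 ± 0.446 CPM in ddm1cmt2 and at 0.293 ± 0.130 CPM in ddm1 (log2 fold change 5.35 ± 0.31). It stood at 0.0755 ± 0.0480 CPM in ddm1nrpd1, a fall (-1.96 ± 0.67, adjusted p = 0.034) that reached an adjusted p of 0.201 with single libraries left out. COP1, part of the ubiquitin ligase that destroys CO protein in the dark, rose in ddm1nrpd1 (0.80 ± 0.10) and ddm1cmt2 (0.47 ± 0.11). Among the inputs in ddm1nrpe1, SPA1 fell (-1.09 ± 0.10) and FBH4 rose (0.95 ± 0.14).

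The clock genes, which set the daily course of CO, COL1, COL2, CDF1 and GI, also differed between the groups. Of 10 listed, 2 rose and 5 fell in ddm1nrpd1, where 44.6% of all loci passed. In ddm1nrpe1 1 rose and 8 fell (50.4% of all loci), and in ddm1cmt2 4 rose and 4 fell (36.1%). The median log2 fold change of the 10 was -0.41, -1.36 and 0.00, beside medians within 0.01 of 0 over all loci. The dawn-phased CCA1 fell from 501 ± 35.7 CPM in ddm1 to 338 ± 25.0 in ddm1nrpd1, 122 ± 16.7 in ddm1nrpe1 and 94.7 ± 7.99 in ddm1cmt2. Its partner LHY fell from 647 ± 60.7 CPM to 512 ± 36.5, 216 ± 18.3 and 24.7 ± 2.56, and the smallest of these falls, in ddm1nrpd1, reached an adjusted p of 0.0993 with single libraries left out. The day-phased PRR7 rose from 9.32 ± 0.824 CPM to 48.1 ± 1.17, 73.2 ± 5.24 and 215 ± 20.01. PRR5, expressed later in the day, rose to 53.7 ± 2.50 CPM in ddm1cmt2 from 2.83 ± 0.214 in ddm1 and fell to 0.898 ± 0.126 in ddm1nrpe1. The part of the hour of harvest, or of clock phase, in the levels of CO, its relatives and CDF1 was not tested.

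**Figure D3:**
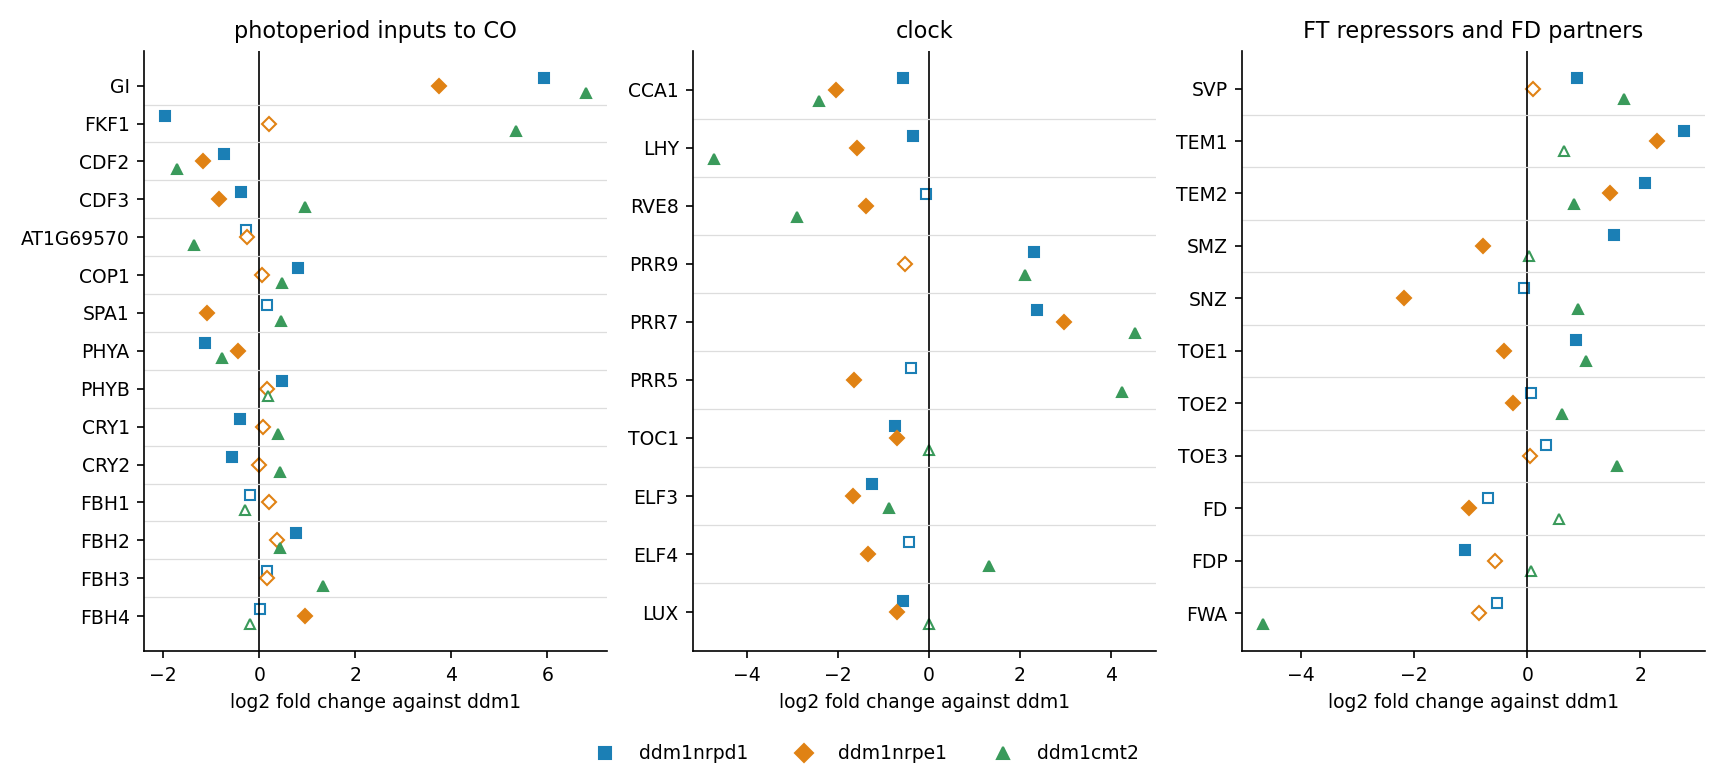
Log2 fold change against ddm1 of 15 inputs to CO, 10 clock genes and 11 FT repressors and FD partners in the 3 double mutants; filled symbols passed at an adjusted p under 0.05 and open symbols did not, and the 3 panels have their own horizontal scales. GI lies at 3.74 to 6.80, FKF1 at 5.35 in ddm1cmt2, LHY at -4.71 in ddm1cmt2 and FWA at -4.67 in ddm1cmt2.

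FT was lowest in ddm1 and higher in each double mutant, the opposite direction to CO. It had 3, 4 and 2 counts in the ddm1 libraries, or 0.329, 0.494 and 0.192 CPM (0.339 ± 0.151). In ddm1nrpd1 it had 44, 61 and 23 counts, or 2.58, 2.33 and 1.49 CPM (2.13 ± 0.571). In ddm1nrpe1 it had 13, 15 and 25 counts, or 0.769, 0.827 and 1.35 CPM (0.981 ± 0.319). All of these libraries lay above all ddm1 libraries. In ddm1cmt2 it had 12, 25 and 24 counts, or 1.21, 1.52 and 2.19 CPM (1.64 ± 0.501), again above ddm1. FT rose 6.44-fold in ddm1nrpd1 (log2 fold change 2.69 ± 0.44, 95% interval 1.75 to 3.63, adjusted p = 0.00017) and 4.91-fold in ddm1cmt2 (2.30 ± 0.48, 95% interval 1.28 to 3.31, adjusted p = 0.0015). It rose 2.96-fold in ddm1nrpe1 (1.57 ± 0.50, 95% interval 0.51 to 2.62, adjusted p = 0.016). That last call was lost without ddm1 replicate 3 (1.24, adjusted p = 0.0873) and without ddm1nrpe1 replicate 3 (1.27, adjusted p = 0.0590). The 9 FT counts in ddm1 limit the precision of all 3 values.

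The ratio of FT to CO counts within a library does not depend on the scaling between libraries. It was 0.0526, 0.0833 and 0.0217 in ddm1, and over the summed counts 0.0457 (95% exact counting interval 0.0206 to 0.0885). In ddm1nrpd1 the ratio of the sums was 0.895 (0.700 to 1.14) and the libraries ran from 0.721 to 1.05. In ddm1nrpe1 it was 1.06 (0.707 to 1.59), with libraries from 0.789 to 1.67. In ddm1cmt2 it was 3.39 (1.98 to 6.09), with libraries from 3.12 to 4.00. The ddm1 libraries lay below all others and the ddm1cmt2 libraries above all others, while the polymerase double mutants overlapped. The intervals cover counting error only, the ratios carry the lengths of both transcripts, and they are given as a description with no test.

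**Figure D4:**
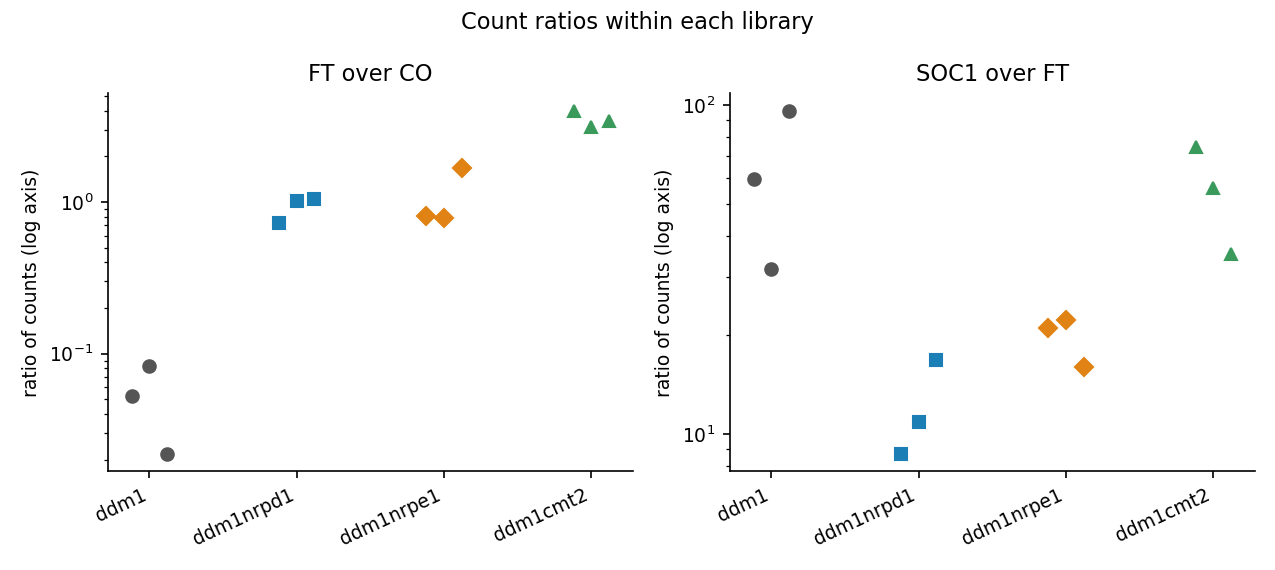
Ratio of FT to CO counts and of SOC1 to FT counts in each library (log axes); each point is 1 library of the 4 groups. FT over CO runs from 0.0217 to 0.0833 in ddm1 and from 3.12 to 4.00 in ddm1cmt2, and SOC1 over FT is lowest in ddm1nrpd1, at 8.70 to 16.8.

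The 11 listed repressors and apex partners of FT were SVP, TEM1, TEM2, the AP2-like SMZ, SNZ and TOE genes, FD, FDP and FWA. Of these, 5 rose and 1 fell in ddm1nrpd1, where 44.6% of all loci passed. In ddm1nrpe1 2 rose and 5 fell (50.4% of all loci), and in ddm1cmt2 6 rose and 1 fell (36.1%). The gene that fell in ddm1nrpd1, FDP, did not pass without ddm1 replicate 1 or 2 or ddm1nrpd1 replicate 1, and the 5 that fell in ddm1nrpe1 became 3 without ddm1 replicate 1 or 3 or ddm1nrpe1 replicate 3. TEM1, which binds the FT leader region and represses it, rose from 10.6 ± 1.35 CPM in ddm1 to 72.3 ± 19.7 in ddm1nrpd1 and 52.3 ± 4.79 in ddm1nrpe1. In ddm1cmt2 TEM1 stood at 16.7 ± 4.49 CPM and did not pass (log2 fold change 0.65 ± 0.24, adjusted p = 0.051). TEM2 rose in ddm1nrpd1 (2.08 ± 0.22) and ddm1nrpe1 (1.47 ± 0.22). Its ddm1cmt2 libraries stood at 33.0, 34.0 and 41.3 CPM, above the ddm1 libraries at 21.5, 20.9 and 18.7. SVP, the MADS-box partner of FLC, rose from 30.8 ± 1.33 CPM to 56.5 ± 0.876 in ddm1nrpd1 and 101 ± 2.92 in ddm1cmt2, and stood at 33.0 ± 2.74 in ddm1nrpe1 (0.10 ± 0.09, adjusted p = 0.37). SNZ fell in ddm1nrpe1 (-2.19) and rose in ddm1cmt2 (0.90), and TOE1 likewise fell (-0.41) and rose (1.04).

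FWA, a homeobox gene that is silent in wild-type leaves through promoter methylation and delays flowering by binding FT protein when expressed, varied most within ddm1. Its ddm1 libraries stood at 0.988, 14.7 and 71.5 CPM. The ddm1nrpd1 libraries stood at 15.6, 19.1 and 27.0 CPM and the ddm1nrpe1 libraries at 18.0, 14.7 and 16.3 CPM, all within the range of ddm1. The ddm1cmt2 libraries stood at 1.72, 0.426 and 1.64 CPM. The log2 fold change in ddm1cmt2 was -4.67 ± 1.30 (adjusted p = 0.022), and without ddm1 replicate 3 it was -2.74. The call was lost without that library or any library of ddm1cmt2 (adjusted p up to 0.0819), with limma-voom (-3.47, adjusted p = 0.275) and with the 6 libraries of the comparison alone (-4.67, adjusted p = 0.123). FT stood at 0.329, 0.494 and 0.192 CPM in the same ddm1 libraries, from 3, 4 and 2 counts. A link between FWA and FT was not tested.

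The phloem companion cell marker SUC2, a sucrose transporter of the cells in which FT is made, stood at 101 ± 4.90 CPM in ddm1 and was lower in both polymerase double mutants, at 60.1 ± 2.05 with nrpd1 and 40.0 ± 6.50 with nrpe1, and higher in ddm1cmt2, at 164 ± 17.4. It fell in ddm1nrpd1 (log2 fold change -0.76 ± 0.12) and ddm1nrpe1 (-1.34 ± 0.12), where FT rose, and rose in ddm1cmt2 (0.70 ± 0.12). APL, a phloem transcription factor and the other companion cell marker listed, did not pass in any of the 3 mutants. It stood at 13.2 ± 1.97 CPM in ddm1 and 13.6 ± 1.54 with nrpd1 (adjusted p = 0.81), at 10.97 ± 0.959 with nrpe1 (adjusted p = 0.15) and at 11.4 ± 1.84 with cmt2 (adjusted p = 0.31). The summed level of SUC2 and APL, most of it SUC2, was 42.8 to 56.5 CPM in ddm1nrpe1, 71.7 to 74.7 in ddm1nrpd1, 110 to 120 in ddm1 and 160 to 194 in ddm1cmt2, and its part in the level of FT was not tested.

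SOC1, the integrator that FT induces and FLC represses at the apex, separated ddm1cmt2 from the other groups. It stood at 90.3, 85.2 and 77.2 CPM in ddm1cmt2 (84.2 ± 6.59) and at 19.5, 15.7 and 18.5 CPM in ddm1 (17.9 ± 1.99). It stood at 22.5, 25.4 and 25.1 CPM in ddm1nrpd1 (24.3 ± 1.58) and at 16.1, 18.4 and 21.6 CPM in ddm1nrpe1 (18.7 ± 2.72). Every ddm1cmt2 library lay above every other library, and the ddm1nrpe1 range overlapped that of ddm1. SOC1 rose 4.70-fold in ddm1cmt2 (log2 fold change 2.23 ± 0.12, adjusted p = 2.6e-09) and rose in ddm1nrpd1 (0.44 ± 0.12, adjusted p = 0.0082). In ddm1nrpe1 the difference was 0.06 ± 0.12 (95% interval -0.20 to 0.32, adjusted p = 0.70), and its sign turned with upper-quartile factors and in 2 fits with 1 library left out. The ratio of SOC1 to FT counts over the summed libraries was 11.2 in ddm1nrpd1 (95% exact counting interval 9.35 to 13.5) and 19.0 in ddm1nrpe1 (14.4 to 25.5), below 55.2 in ddm1 (28.9 to 121) and 51.5 in ddm1cmt2 (40.0 to 67.5).

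SEP3, a cofactor of the floral organ identity proteins, was lowest in ddm1 and uneven between replicates. It stood at 2.75, 2.22 and 0.769 CPM in ddm1 (1.91 ± 1.02) and at 6.34, 5.64 and 4.93 CPM in ddm1nrpd1 (5.64 ± 0.708). It stood at 9.76, 10.2 and 7.98 CPM in ddm1nrpe1 (9.31 ± 1.18). Both polymerase double mutants lay above ddm1. In ddm1cmt2 it stood at 4.44, 2.62 and 11.05 CPM (6.03 ± 4.44), a range that overlapped ddm1 and rested on replicate 3. SEP3 rose 4.97-fold in ddm1nrpe1 (log2 fold change 2.31 ± 0.52, 95% interval 1.15 to 3.47, adjusted p = 0.0040). It also passed in ddm1nrpd1 (1.59 ± 0.54, 95% interval 0.39 to 2.79, adjusted p = 0.034), with a call that was lost without ddm1 replicate 2 (1.72, adjusted p = 0.0646), without ddm1 replicate 3 (1.18, adjusted p = 0.118) and without ddm1nrpd1 replicate 1, 2 or 3 (adjusted p = 0.0805, 0.0704 and 0.0513). In ddm1cmt2 it passed at 1.65 ± 0.56 (95% interval 0.42 to 2.88, adjusted p = 0.040). Without ddm1cmt2 replicate 3 this was 0.87 (adjusted p = 0.0879), and the call was also lost without ddm1 replicate 2 (1.78, adjusted p = 0.0736) or 3 (1.21, adjusted p = 0.140).

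Of 16 listed floral identity targets, 9 had a row. LFY and AP1, the meristem identity genes that FT and SOC1 act through, were not analysed here, nor were CAL, SEP1, SEP2, AP3 and PI. Of the 9, 2 rose and 1 fell in ddm1nrpd1, where 44.6% of all loci passed. In ddm1nrpe1 2 rose and 2 fell (50.4% of all loci), and 3 rose in ddm1cmt2 (36.1%). The 3 that rose there became 1 without ddm1 replicate 2 or ddm1cmt2 replicate 1 or 2. The 2 that rose became 1 in ddm1nrpd1 without ddm1 replicate 1 or 2 or any library of that mutant, and 1 in ddm1nrpe1 without ddm1 replicate 2 or ddm1nrpe1 replicate 3. The fall in ddm1nrpd1 (SPL3, -0.81) was lost without replicate 1 or 3 of either group. SPL9, an age-pathway activator of SOC1, rose in ddm1cmt2 from 0.878, 1.11 and 2.40 CPM in ddm1 to 15.2, 13.3 and 8.95 CPM (log2 fold change 3.05 ± 0.30, adjusted p = 1.5e-06). In the other mutants SPL9 stood at 2.38 ± 0.192 and 2.17 ± 0.512 CPM and did not pass. Without ddm1 replicate 3, the highest ddm1 library, it passed as a rise in ddm1nrpd1 (1.27, adjusted p = 0.0166). FUL, a MADS-box relative of AP1, rose in ddm1cmt2 from a mean of 0.938 ± 0.242 CPM to 2.02 ± 0.454 (log2 fold change 1.08, adjusted p = 0.030, up to 0.102 with single libraries left out). AG, the floral organ identity gene, had 7 counts in ddm1, all in replicate 1, and stood at 2.00, 1.79 and 1.56 CPM in ddm1nrpd1. Its log2 fold change there was 2.77 ± 0.75 (adjusted p = 0.0079), and without ddm1 replicate 1, which leaves ddm1 with no count, the fitted value was 7.78.

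FLC, the repressor of FT and SOC1 that winter cold silences, was at or near 0 in all groups. It had 1 count in ddm1nrpd1 replicate 3 and 0 in the other 11 libraries, over a total of 177 M counts. In the groups with 0 counts, a floor of 3 counts over the 3 libraries allows up to 0.109 CPM in ddm1, 0.0804 in ddm1cmt2 and 0.0560 in ddm1nrpe1. This covers counting error only. The floor does not bound ddm1nrpd1, which had 1 count and a mean of 0.0216 CPM. No difference in FLC was detectable at this depth. Of 15 tested genes of the FLC clade and its regulators, 3 rose and 1 fell in ddm1nrpd1, where 44.6% of all loci passed. In ddm1nrpe1 3 rose and 2 fell (50.4% of all loci), and in ddm1cmt2 2 rose and 1 fell (36.1%). These small counts moved with single libraries: the fall in ddm1nrpd1 was that of MAF2, and the count of falls in ddm1nrpe1 went from 2 to 1 without ddm1 replicate 1 and to none without replicate 2 of either group. In ddm1cmt2 the 2 rises became 1 without ddm1 replicate 1 or 2, and the fall was lost without ddm1 replicate 2 or ddm1cmt2 replicate 1 or 3. FPA and VRN2, regulators of FLC in the autonomous and vernalization pathways, rose in ddm1nrpd1 (log2 fold change 0.58 ± 0.09 and 0.53 ± 0.10). VRN2 also rose in ddm1nrpe1 (0.60 ± 0.10), and FPA also rose in ddm1cmt2 (0.34 ± 0.09). MAF2, a paralog of FLC, fell in ddm1nrpd1 from 28.8 ± 0.799 CPM in ddm1 to 23.7 ± 1.55 (-0.28 ± 0.10, adjusted p = 0.025). The fall of MAF2 was lost when replicate 1 or 3 of ddm1, or replicate 2 or 3 of ddm1nrpd1, was left out (adjusted p up to 0.0938), and its levels of 29.3 ± 1.08 CPM in ddm1nrpe1 and 29.6 ± 2.84 in ddm1cmt2 did not pass.

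Of the 4 other genes of the FT family, TFL1, which opposes FT at the apex, did not pass against ddm1 in any of the 3 mutants (0.865 ± 0.124 CPM in ddm1 and means of 0.713 to 1.07 in the mutants). BFT, another member that delays flowering, had 3 counts in ddm1, all in replicate 3, and 50 in ddm1cmt2. The ratio of levels was 12.3 (95% exact counting interval 3.99 to 61.8, for counting error only). BFT rose there in the test between groups (log2 fold change 3.53 ± 0.74, adjusted p = 0.0020). It had 4 counts in ddm1nrpd1 and 0 in ddm1nrpe1. Besides BFT in ddm1cmt2, the calls in this family were rises of MFT in all 3 mutants (0.40, 0.56 and 0.64 in ddm1nrpd1, ddm1nrpe1 and ddm1cmt2) and a fall of ATC in ddm1nrpe1 (-0.85). The rise of MFT in ddm1nrpd1 was lost without ddm1 replicate 1 or 3 or any library of that mutant.

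The double mutants also differed from each other. In ddm1nrpe1 against ddm1nrpd1, 6 of the 7 tested genes were lower, where 36.1% of all loci passed and 16.4% were lower. The log2 differences were -1.38 ± 0.32 for CO, -0.48 ± 0.12 for COL1, -1.27 ± 0.18 for COL2, -0.85 ± 0.15 for CDF1, -1.12 ± 0.31 for FT and -0.38 ± 0.12 for SOC1. The difference of COL1 was -0.31 without ddm1nrpd1 replicate 1, that of FT did not pass without ddm1nrpe1 replicate 2 (-1.01, adjusted p = 0.0525), and that of SOC1 did not pass in 4 of 6 fits with 1 library left out (adjusted p = 0.0582 to 0.0906). SEP3 was the gene that did not pass (0.72 ± 0.41, 95% interval -0.18 to 1.62, adjusted p = 0.20), although all ddm1nrpe1 libraries lay above all ddm1nrpd1 libraries. In ddm1cmt2 against ddm1nrpd1, 2 were higher and 3 lower, where 50.5% of all loci passed (26% higher and 24.5% lower). CO (-2.32 ± 0.39), COL1 (-2.07 ± 0.13) and COL2 (-1.61 ± 0.18) were lower, and CDF1 (1.18 ± 0.14) and SOC1 (1.79 ± 0.11) were higher. The difference of FT was -0.39 ± 0.30 (95% interval -1.04 to 0.25, adjusted p = 0.30) and that of SEP3 0.06 ± 0.44 (95% interval -0.91 to 1.03, adjusted p = 0.93).

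In ddm1cmt2 against ddm1nrpe1, CDF1 (2.03 ± 0.15) and SOC1 (2.17 ± 0.12) were higher and COL1 (-1.60 ± 0.13) was lower, or 3 of 7, where 55.1% of all loci passed (26.9% higher and 28.2% lower). CO lay lower in all ddm1cmt2 libraries without passing (-0.94 ± 0.45, 95% interval -1.90 to 0.02, adjusted p = 0.089). COL2 differed by -0.34 ± 0.18 (adjusted p = 0.12) and passed without ddm1nrpe1 replicate 1 (-0.51, adjusted p = 0.0178). FT differed by 0.73 ± 0.34 (adjusted p = 0.078) and passed without ddm1nrpe1 replicate 3 (1.03, adjusted p = 0.0296). SEP3 differed by -0.66 ± 0.43 (adjusted p = 0.21) and passed without ddm1cmt2 replicate 3 (-1.43, adjusted p = 0.000911).

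Ordered by mean level, CO and COL2 ran from ddm1 through ddm1nrpd1 and ddm1nrpe1 to ddm1cmt2, and the last step did not pass for either. COL1 had the same order, with the first step not passing. CDF1 ran from ddm1cmt2 and ddm1, which did not differ beyond their spread, through ddm1nrpd1 to ddm1nrpe1. FT ran from ddm1nrpd1 through ddm1cmt2 and ddm1nrpe1 to ddm1, and the last step was the one between neighbours that passed. SOC1 ran from ddm1cmt2 through ddm1nrpd1 to ddm1nrpe1 and ddm1, and the last step did not pass. SEP3 ran from ddm1nrpe1 through ddm1cmt2 and ddm1nrpd1 to ddm1, and the last step was the one that passed.

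For each of the 7 genes, the loci with the most similar course over the 12 libraries were found among 19348 protein-coding loci with a mean level of at least 1 CPM, by the root-mean-square difference of mean-centred log2 CPM. The nearest to COL2 was the clock gene CCA1 (0.179), where COL2 itself varied by 1.02 around its mean. The nearest to CO were AT1G49200 (0.514), CRF1 (0.520) and again CCA1 (0.536), beside a spread of 1.38 for CO. The nearest to COL1 was UMAMIT14 (0.271), to CDF1 LAX2 (0.189), to SOC1 AT5G17460 (0.183), to SEP3 RING1 (0.253) and to FT CYP96A4 (0.341). Within the set, CO and COL2 differed by 0.544, COL1 and COL2 by 0.620 and CO and COL1 by 0.762. The points share libraries and depth, and the values are given as a description.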

How the data were processed

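The authors deposited raw counts per locus with CPM columns beside them; the counts were used. Trimmomatic, TopHat, HTSeq and edgeR are among the tools that the submitters' processing notes name, with build TAIR10 and no roles or versions; the sources used here state neither the strand setting nor how reads matching several loci were handled. Columns were tied to samples by genotype and replicate number. Members and companion lists were chosen with earlier results of these data known.

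Tests were run on the counts with edgeR 4.0.16 (R 4.3.3): filterByExpr on the 4 groups, TMM scaling, 1 mean per group fitted to all 12 libraries (8 residual degrees of freedom) with robust quasi-likelihood dispersions, and 6 pairwise tests with a threshold of 0.05 on the adjusted p. A log2 fold change divided by the square root of its F gave the approximate standard error. Precision is set by library totals of 7.84 to 24.8 M. Named genes were the 9 members, up to 4 genes of each of 7 companion lists and comparison by smallest adjusted p, and GI, FWA, LFY and AP1; FDP, PHYA and ELF3 where the rule did not take them, the markers, and values of a named gene in comparisons where the rule did not take it, were added after values were seen. Names and overlaps came from a RefSeq table (TAIR10.1), which lists all 102 genes of the lists; no coordinates of it are printed. Likeness used log2 CPM with a prior count of 2. Alternatives were RLE and upper-quartile factors, limma-voom (limma 3.58.1), DESeq2 1.42.0, no filter, a minimum of 1 CPM in 3 libraries, separate fits of each comparison's 6 libraries, a replicate block, the fit without organelle loci, and each library left out. The fit was tested on simulated data. The other 30 samples were not analysed here.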

Additional observations from a re-analysis of the deposited data

How the results depend on the processing

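Over 630 recomputed differences of the 7 tested genes (9 other settings and each library left out, in 6 comparisons), 599 kept their direction and their side of the threshold, 19 lost a call, 6 gained one and 6 turned in sign without passing. SOC1 in ddm1nrpe1 against ddm1 became -0.0018 with upper-quartile factors and -0.02 and -0.055 without ddm1 replicate 2 and ddm1nrpe1 replicate 3 (-0.055 to 0.16 with single libraries left out). SEP3 in ddm1cmt2 against ddm1nrpd1 became -0.26 with limma-voom and -0.02 and -0.72 without ddm1nrpd1 replicate 3 and ddm1cmt2 replicate 3 (-0.72 to 0.47 with single libraries left out). SEP3 in ddm1cmt2 against ddm1 did not pass with limma-voom (1.50, adjusted p = 0.0941) or with the 6 libraries alone (1.65, adjusted p = 0.139). SEP3 passed in ddm1nrpe1 against ddm1nrpd1 with the 6 libraries alone (0.69, adjusted p = 0.00497) and in ddm1cmt2 against ddm1nrpe1 with limma-voom (-0.97, adjusted p = 0.0468). The cause was not tested. Total counts of called loci, and of called genes among the 7, stayed within 1.5 times. Companion list counts moved more under settings other than left-out libraries: in ddm1nrpd1 the 2 rises of floral targets became 1 with upper-quartile factors, DESeq2, the replicate block or the 6 libraries alone, their fall was lost with limma-voom or the block, the fall in the FLC clade became 2 with upper-quartile factors or the block, and the rise of MFT was lost with upper-quartile factors, DESeq2 or limma-voom. In ddm1cmt2 the 2 rises in the FLC clade became 1 with upper-quartile factors, DESeq2, limma-voom or the 6 libraries alone, its fall became 2 with upper-quartile factors, and the CO-like fall became 2 with the 6 libraries alone. Single libraries that changed a call or a count are named beside many of the results, but not beside all of them.

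Deviations of samples with the same replicate number correlated at -0.306 to 0.220 over 18 pairs, above 0.1 in 3. Each sample was also matched with the libraries of each other group. The best match had the same number in 12 of 36 such cases, so no pairing by number was seen. With the replicate number as a block, SEP3 did not pass in ddm1nrpd1 (1.61, adjusted p = 0.0607) or ddm1cmt2 (1.63, adjusted p = 0.0759) against ddm1, the count of called genes became 5 in both comparisons, and no other call of the 7 genes changed. FT in ddm1 rests on 9 counts, CO in ddm1cmt2 on 18 and FLC on 1 in all libraries, which limits their precision.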

Other observations

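Root and meristem markers, listed as checks, also differed between the groups gene by gene. EXPA7, a gene of root hair cells, stood at 9.90 ± 1.39 CPM in ddm1 and fell to 0.0343 ± 0.0326 in ddm1nrpd1, from 2 counts in the 3 libraries, and to 4.92 ± 0.233 in ddm1nrpe1. COBL9, another root hair gene, fell from 9.16 ± 1.21 CPM to 0.0687 ± 0.0652 in ddm1nrpd1 and 2.85 ± 0.0137 in ddm1nrpe1. In ddm1cmt2 their log2 fold changes of 0.01 and -0.42 did not pass. STM, a shoot meristem gene, stood at 3.37 to 4.57 CPM in ddm1, 1.88 to 2.56 in ddm1nrpd1, 3.02 to 3.47 in ddm1nrpe1 and 1.55 to 2.25 in ddm1cmt2. PHYA, the far-red photoreceptor that stabilises CO protein, fell in all 3 double mutants (-1.14, -0.44 and -0.79 in ddm1nrpd1, ddm1nrpe1 and ddm1cmt2). ELF3, of the evening complex, also fell in all 3 (-1.23, -1.67 and -0.87).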
